A study of Mus musculus with 4 samples.

Results

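Insulin-like growth factor 1 (IGF1), its receptor and 6 IGF binding proteins were followed across the cell classes of mouse retina and choroid after laser injury and with age. The members were the rows Igf1, Igf1r, Igfbp2, Igfbp3, Igfbp4, Igfbp5, Igfbp6 and Igfbp7, chosen by symbol, which are 8 of the 24783 genes measured. All mice were wild type (WT), and retina and choroid were pooled into droplet single-cell RNA libraries, with 1 library per group. The groups were mice over 18 months old taken 3 days after laser photocoagulation, which induces choroidal neovascularisation (aged CNV), mice of that age without CNV (aged control), mice of 6 to 8 weeks taken 3 days after laser (young CNV), and mice of 6 to 8 weeks without CNV (young control). Retinal suspensions were depleted of rods with antibodies against CD73 before choroid-sclera cells were added, so the share of each class in a library is partly set by handling. The labels do not say how many animals entered a library.

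IGF1 is a secreted growth factor that signals through the receptor tyrosine kinase encoded by Igf1r. IGF binding proteins hold IGFs in the extracellular fluid, and depending on the protein and the tissue they lower or prolong IGF action, while proteases such as pregnancy-associated plasma protein A release the bound ligand. In the eye the IGF system is known for its part in the growth of retinal vessels, and IGF binding protein 7 binds IGFs only weakly and is a matrix protein of vessel walls.

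After removal of predicted doublets 7454 cells were kept in aged CNV, 6431 in aged control, 10564 in young CNV and 11151 in young control. Over all deposited cells the median was 6875, 6427, 7223 and 2593 unique molecular identifiers (UMIs) per cell, and total UMIs ranged from 50848238 to 111908519 per library. Between 14 and 29 cell barcodes were shared by any 2 libraries. Cells were clustered without the 8 members and named by marker genes, and the UMIs of a gene over all cells of a class in a library were given as counts per 1000000 UMIs (CPM). Since each group was 1 library, no test between groups was possible and every interval below covers counting error only, as a 95% exact Poisson interval for a level and a 95% exact conditional binomial interval for a ratio. A ratio of at least 2 or at most 0.5 was called, if each library held 50 or more cells of the class (20 for the rarer leukocytes) and the pair held at least 20 UMIs of the gene.

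The members fell into distinct sets of cells. Igfbp3 was held mainly by endothelial-like cells and Igfbp4, Igfbp5 and Igfbp6 by fibroblast-like cells, while Igf1r was detected in nearly every class. Fibroblast-like cells held 44.0%, 36.5%, 80.8% and 71.0% of the Igf1 UMIs of the aged CNV, aged control, young CNV and young control libraries, and bipolar-like cells held 23.7%, 30.4%, 0.618% and 1.12%. The ligand was thus spread over more classes in the aged libraries, which also held more bipolar-like cells. Of Igfbp4, fibroblast-like cells held 83.2%, 91.1%, 85.8% and 81.6%. Their share of Igfbp5 was 87.5%, 94.6%, 91.7% and 86.2%, and of Igfbp6 it was 90.8%, 96.2%, 96.3% and 93.8%. Endothelial-like cells held 86.7%, 94.2%, 63.2% and 72.9% of Igfbp3. Cells left unnamed held 37, 8, 2022 and 1401 Igfbp3 UMIs. Among them was a cluster led by Plvap and Igfbp3 whose leading genes also included Rgs5 and Kcnj8. It was left unnamed by hand and had 8, 3, 120 and 68 cells. The endothelial-like shares leave out its UMIs and so depend on this naming, mainly in the young libraries.

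**Figure D1:**
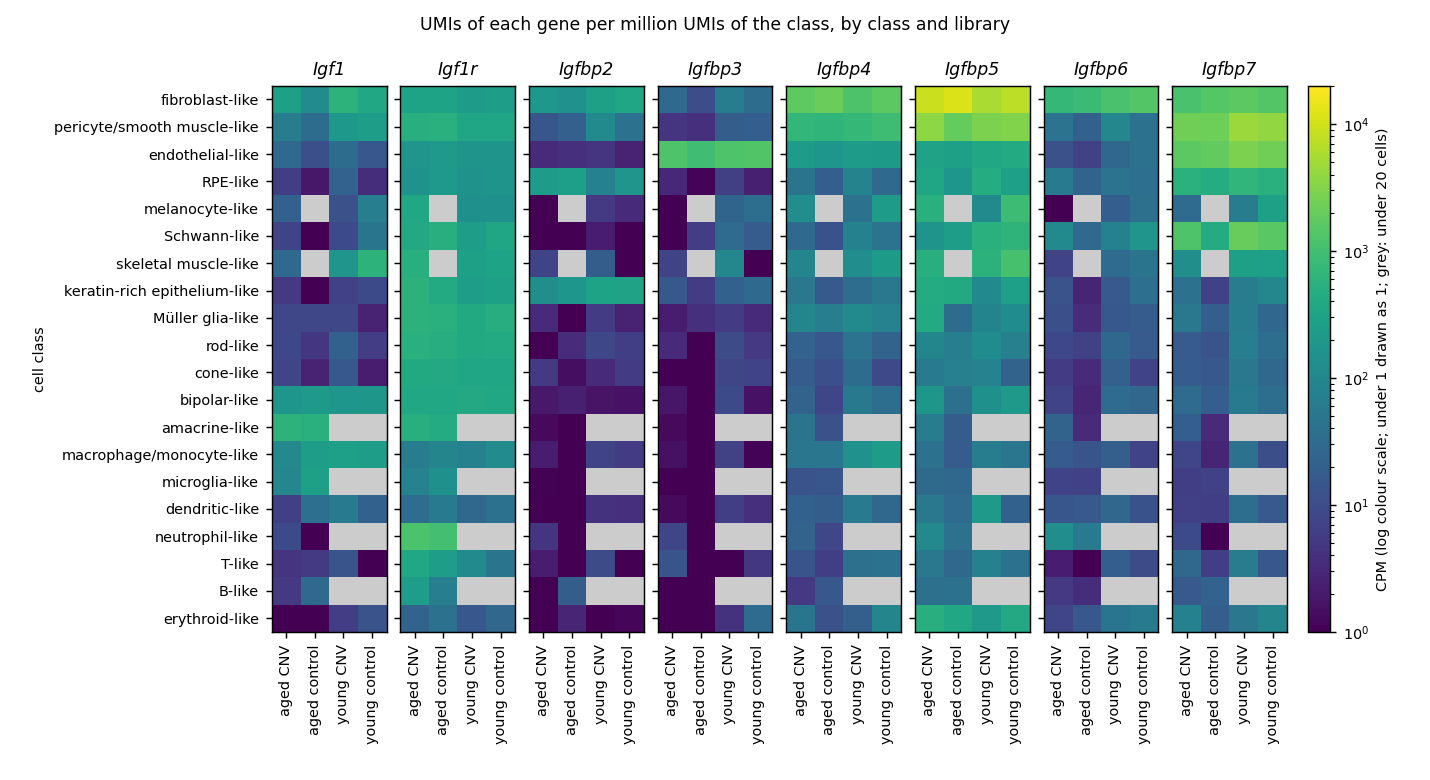
Level of each member in CPM (log colour scale) by cell class (rows) and library (columns), for classes with at least 20 cells in the library (grey where there were fewer). Igfbp3 stands out in endothelial-like cells in all 4 libraries, from 962 CPM in aged control to 1385 CPM in young control, while Igf1r is spread over neurons, glia, vessel wall and neutrophil-like cells.

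Rod-like cells were taken as a floor for these levels, as a class in which little expression of the ligand and binding proteins is known. Whether their UMIs came from free RNA, doublets or the cells themselves was not tested. They carried Igfbp5 at 94.6, 67.9, 121 and 74.2 CPM in aged CNV, aged control, young CNV and young control, and Igf1 at 8.68, 4.76, 21.5 and 6.02 CPM. Both were highest in young CNV. A UMI of Igf1 was seen in 2.27%, 1.56%, 4.58% and 0.993% of rod-like cells at median depths of 2710, 3287, 1940 and 1330 UMIs, against 53.4%, 38.6%, 78.9% and 62.1% of fibroblast-like cells at median depths of 8233, 8681, 11920 and 9972. With every cell thinned to 1000 UMIs the shares were 1.02%, 0.516%, 2.43% and 0.496% in rod-like cells and 17.6%, 11.4%, 32.3% and 20.3% in fibroblast-like cells, so the order of the 4 libraries in fibroblast-like cells was the same at equal depth.

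The GRCm38 coordinates (GENCODE vM21) place Igf1 at chr10:87858265-87937042 on the plus strand, Igf1r at chr7:67952827-68233668 (plus), Igfbp3 at chr11:7206086-7213923 (minus), Igfbp4 at chr11:99041244-99054392 (plus), Igfbp6 at chr15:102144362-102149511 (plus) and Igfbp7 at chr5:77349240-77408041 (minus). Igfbp2 (chr1:72824503-72852474, plus) and Igfbp5 (chr1:72857932-72874884, minus) are neighbours that point at each other, 5457 bases apart. All 8 members matched a RefSeq promoter entry (GRCm38.p6). The 100 bases before the start of Igfbp3, the endothelial member, and of Igfbp4 and Igfbp5, members held by fibroblast-like cells that were lower there after laser, are shown because these 3 windows hold TATA-type letters. Capitals mark those letters (TATANA on either strand, or TATTTA).
Igfbp3, chr11:7213924-7214023, minus strand: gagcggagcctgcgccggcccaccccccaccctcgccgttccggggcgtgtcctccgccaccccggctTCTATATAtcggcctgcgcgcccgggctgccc
Igfbp4, chr11:99041144-99041243, plus strand: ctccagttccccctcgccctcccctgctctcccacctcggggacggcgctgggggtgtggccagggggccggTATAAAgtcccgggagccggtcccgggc
Igfbp5, chr1:72874866-72874965, minus strand: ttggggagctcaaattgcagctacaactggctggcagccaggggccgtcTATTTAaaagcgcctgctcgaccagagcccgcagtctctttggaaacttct
TATANA began at base -28 before the start of Igfbp4 and at -32 and -30 before that of Igfbp3, where the plus and minus strand matches overlap. TATTTA began at -51 before that of Igfbp5. Of 32851 windows of this length in the table, 9.48% held TATANA and 4.74% held TATTTA, counting both strands. The last 19 bases of the Igfbp5 window lie in an exon of the GENCODE annotation.

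Igf1, the ligand, was higher after laser in fibroblast-like cells at both ages and lower in aged than in young mice. Its level was 275 CPM in aged CNV, 119 in aged control, 606 in young CNV and 374 in young control. Both lasered libraries lay above the control of their age, and both young libraries lay above both aged ones. The laser ratio was 2.32 (2.18 to 2.47) in aged and 1.62 (1.58 to 1.66) in young mice. Aged over young was 0.317 (0.299 to 0.337) in controls and 0.454 (0.439 to 0.470) after laser. Thinned to 1000 UMIs per cell, these age ratios were 0.465 in controls and 0.561 after laser, so the ratio after laser was no longer past 2-fold.

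The fibroblast-like class joined 5 clusters whose shares differed between libraries, and the laser values were therefore also read within clusters. The cluster led by Clec3b, Dpt and Pi16 made up 35.1% of the class in aged CNV, 11.9% in aged control, 45.0% in young CNV and 21.4% in young control. The cluster led by Chil1 and Myoc made up 35.1%, 48.8%, 17.8% and 20.5%, and the cluster led by Pgf and Pappa2 made up 17.2%, 29.4%, 21.2% and 37.4%. Igf1 was highest in the Clec3b and Dpt cluster, at 602, 365, 1024 and 821 CPM, and in a small cluster led by Fmod and Kera, at 511, 372, 875 and 788 CPM. The laser ratio of Igf1 was above 1 in 4 of 4 clusters compared in aged mice, from 1.24 to 1.65, and in 5 of 5 in young mice, from 1.05 to 1.73. Each of these was smaller than the 2.32 of the whole class in aged mice, where the Igf1-rich cluster also took a larger share of the cells after laser. In the Clec3b and Dpt cluster the laser ratio was 1.65 (1.495 to 1.83) in aged and 1.25 (1.21 to 1.29) in young mice, and aged over young was 0.444 (0.402 to 0.490) in controls. In the Chil1 and Myoc cluster Igf1 stood at 76.9, 62.2, 102 and 59.1 CPM, and aged over young in controls was 1.05 (0.9004 to 1.23). Clusters with 1 name still held different cells by library. At Leiden resolution 2.0, 59.5%, 61.2%, 15.03% and 5.33% of the Chil1 and Myoc cluster fell into a cluster led by Chil1, Myoc and Adamtsl3, and 0.772%, 4.70%, 47.9% and 88.8% into one led by Ecrg4, Chad and Myoc. Of the Pgf and Pappa2 cluster 91.3%, 83.2%, 6.17% and 1.76% fell into one led by Col10a1, Timp1 and Pappa2. Age ratios within these clusters, and the young laser ratio within the Chil1 and Myoc cluster, therefore compared cells of different make-up, while the aged laser ratio compared more similar ones.

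**Figure D2:**
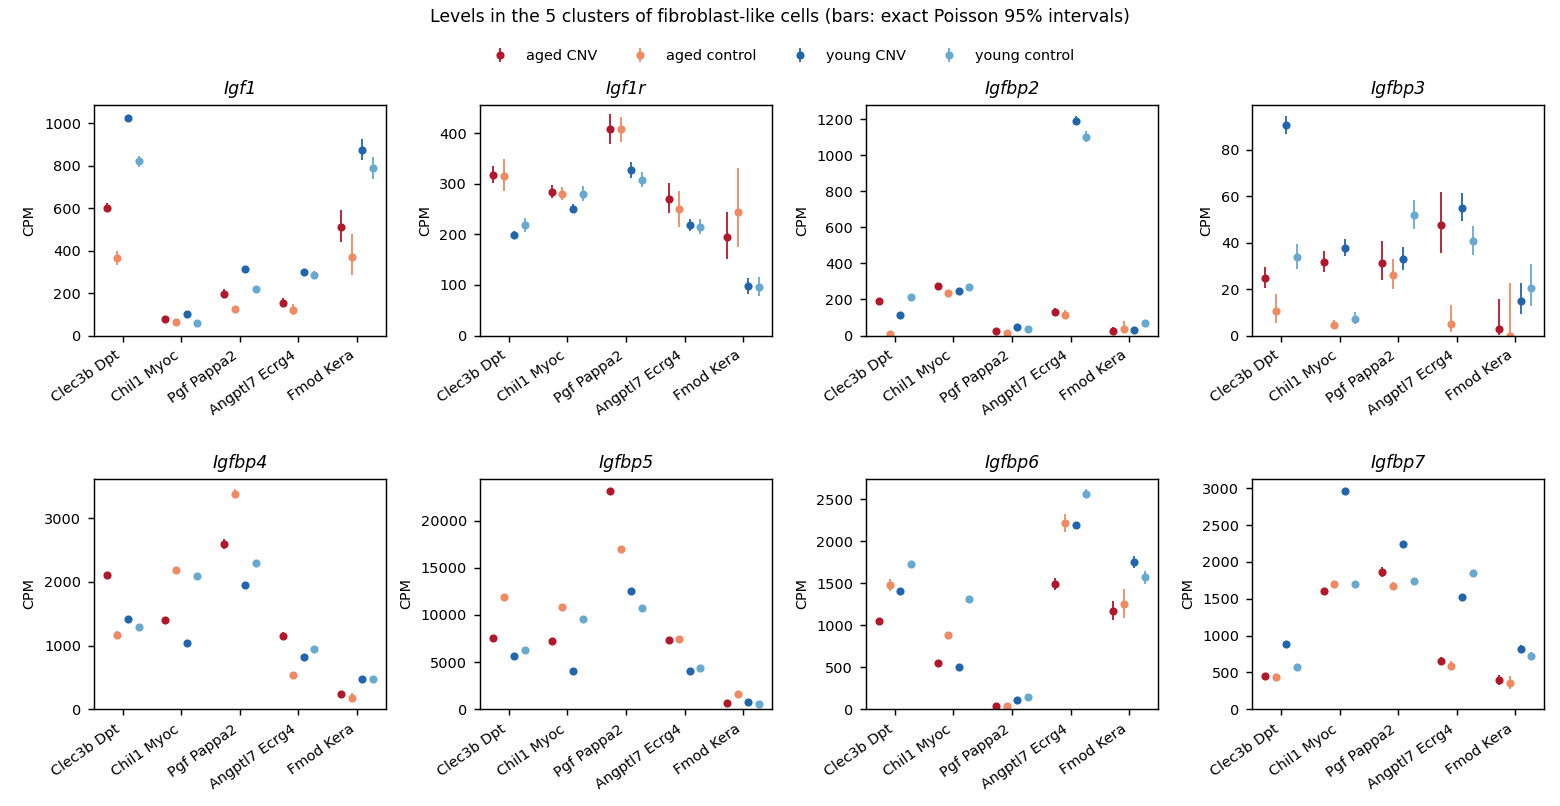
Level of each member in CPM in the 5 clusters of fibroblast-like cells, named by 2 leading genes, with 1 point per library and exact Poisson 95% intervals. Igf1 is higher in CNV than in control within each cluster at both ages, while Igfbp5 is higher in CNV in the Pgf and Pappa2 cluster (23100 and 17040 CPM in aged CNV and aged control, 12520 and 10690 CPM in young CNV and young control) and lower in the Chil1 and Myoc cluster.

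Mural cells of vessels also carried Igf1. Pericyte/smooth muscle-like cells had 67.02 CPM in aged CNV, 33.4 in aged control, 194 in young CNV and 261 in young control. The young libraries were again above the aged ones, with aged over young at 0.128 (0.0950 to 0.169) in controls and 0.346 (0.269 to 0.439) after laser. The laser ratio was 2.01 (1.40 to 2.90) in aged and 0.742 (0.666 to 0.827) in young mice, on 77 and 53 UMIs in aged CNV and aged control. Its make-up differed between libraries. The smooth muscle cluster, led by Myh11, made up 66.7%, 84.0%, 48.9% and 51.5% of the class in aged CNV, aged control, young CNV and young control, so that the class level of Igf1 and this share ran in opposite order between the ages. That cluster had Igf1 at 7.61, 4.53, 50.3 and 66.8 CPM in aged CNV, aged control, young CNV and young control, below the level of the whole class in each library. Its aged over young ratio was 0.0678 (0.0244 to 0.152) in controls and 0.151 (0.0539 to 0.345) after laser, on 6 UMIs in each aged library, too few to compare aged CNV with aged control. All 8 fibroblast markers had UMIs in pericyte/smooth muscle-like cells of aged CNV, young CNV and young control and 7 in aged control, where Dpt was at 0, and their summed level was 1741, 527, 4748 and 2643 CPM. It was higher after laser at both ages, while Igf1 was higher after laser in aged and lower in young mice. The part of these markers in the values was not tested.

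Neurons of the inner retina were a further place of Igf1. Bipolar-like cells stood at 181, 216, 183 and 192 CPM in aged CNV, aged control, young CNV and young control, on 1313, 458, 146 and 88 cells. The 4 levels lay close together. Amacrine-like cells, which use GABA or glycine, had 607 CPM in 82 cells of aged CNV and 537 CPM in 52 cells of aged control, while young CNV and young control held 2 and 4 such cells. An unnamed cluster led by the adipocyte genes Cfd, Car3 and Adipoq, with 47 of its 48 cells in aged CNV, stood at 937 CPM.

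In macrophage/monocyte-like cells Igf1 was lower after laser in aged mice. They had 107 CPM in aged CNV, 257 in aged control, 266 in young CNV and 249.2 in young control. Aged CNV stood apart below the other 3 libraries. The laser ratio was 0.415 (0.358 to 0.482) in aged and 1.07 (0.931 to 1.22) in young mice, and aged over young after laser was 0.401 (0.358 to 0.448). The clusters behind this class differed between libraries. The resident-type cluster led by Cd163 and Folr2 had 264, 379, 486 and 366 CPM, on 22, 14, 266 and 56 cells, and the cluster led by Spp1 and Arg1 had 145, 549 and 303 CPM in aged CNV, aged control and young CNV on 131, 42 and 202 cells. The cluster led by Chil3 and Ly6c2, a monocyte marker, had 5, 1 and 0 Igf1 UMIs in aged CNV, aged control and young CNV. Within each of the clusters led by Cd163 and Folr2, by Spp1 and Arg1 and by Fcgr1 and Ms4a7, Igf1 was lower in aged than in young mice after laser. Leukocyte clusters nearest to macrophages but left unnamed were outside the class. Of these, the one led by Cxcl13 and Cd209d stood at 442 CPM in 120 cells of aged CNV and 313 CPM in 11 cells of aged control, and the one led by Lilra5 at 206, 203, 444 and 331 CPM. A lower level in aged CNV than in aged control was not seen in either. Unnamed clusters led by Hpgd and Ccl24 and by Adgre4 and Treml4 were also nearest to macrophages, and their levels are not given here. Microglia-like cells had 99.2 CPM in aged CNV and 276 in aged control, a ratio of 0.360 (0.264 to 0.491) on 38 and 25 cells, where 5 cells held 96.8% and 89.9% of the UMIs.

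**Figure D3:**
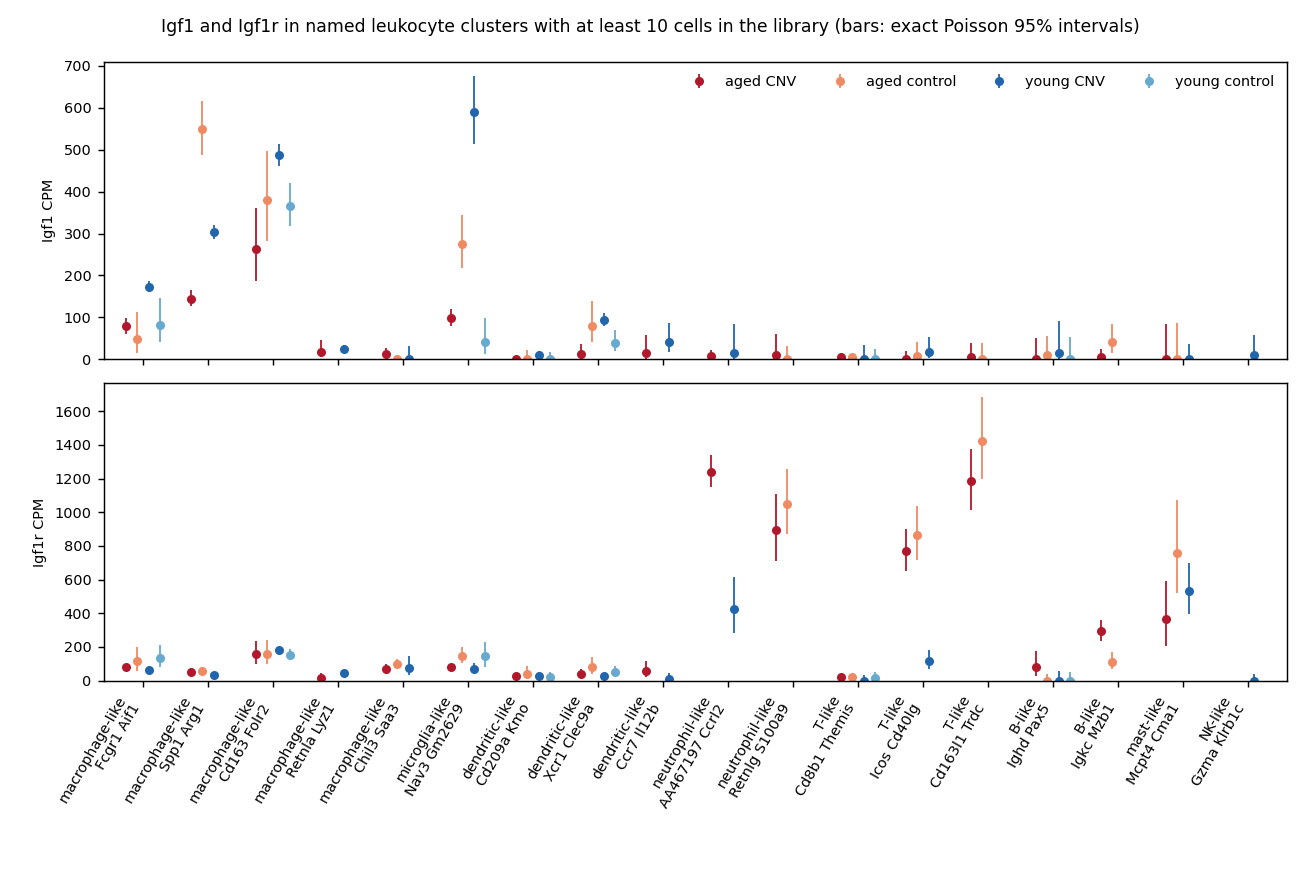
Igf1 (top) and Igf1r (bottom) in CPM in named leukocyte clusters with at least 10 cells in the library, with exact Poisson 95% intervals. Igf1 is found in macrophage clusters and microglia-like cells and Igf1r in neutrophil-like, mast-like and 2 of the T-like clusters.

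The receptor gene Igf1r was detected in neurons, glia, vessels and stroma. Müller glia-like cells stood at 579, 547, 411 and 478 CPM in aged CNV, aged control, young CNV and young control, rod-like cells at 532, 486, 414 and 424 CPM, and fibroblast-like cells at 308, 311, 227 and 248.7 CPM. Erythroid-like cells, taken as the floor for this gene, stood at 23.7, 40.9, 14.7 and 26.6 CPM. In Müller glia-like, rod-like and fibroblast-like cells both aged libraries lay above both young ones, and over 11 classes the age ratio was above 1 both in controls and after laser in 9. Over all genes the median log2 age ratio was also above 0, at 0.10 in controls and 0.16 after laser. TMM scaling shifted log2 age ratios in RPE-like cells by -0.269 in controls and -0.305 after laser. In endothelial-like cells the shift after laser was -0.181. The count of 9 therefore depends on the scaling. Laser ratios in fibroblast-like cells were 0.988 (0.945 to 1.03) in aged and 0.912 (0.882 to 0.944) in young mice. In keratin-rich epithelium-like cells, whose 575, 419, 259 and 281 CPM came from 388, 30, 253 and 253 cells, aged over young after laser was 2.22 (2.11 to 2.33), and 1.80 with TMM scaling.

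Leukocytes were divided by Igf1r. Neutrophil-like cells had 1190 CPM in 202 cells of aged CNV and 1042 CPM in 28 cells of aged control, while young CNV and young control held 19 and 3 such cells. The aged libraries drew on different clusters. The cluster led by AA467197 and Ccrl2 held 177 of the 202 aged CNV cells and 1 of the 28 aged control cells, and within the cluster led by Retnlg and S100a9 Igf1r was 894 CPM in 25 cells of aged CNV and 1051 CPM in 27 cells of aged control. Of the T-like clusters, the one led by Cd163l1 and Trdc, genes of gamma delta T cells, had 1185 CPM in aged CNV and 1423 CPM in aged control on 36 and 17 cells, and the one led by Icos, Cd40lg and Cd4 had 768, 865 and 118 CPM in aged CNV, aged control and young CNV on 40, 22 and 27 cells. The cluster led by Cd8b1 and Cd8a had 19.2, 19.5, 0 and 13.7 CPM. Over the T-like class Igf1r was 364, 246, 114 and 44.9 CPM, on 174, 156, 51 and 25 cells, and aged over young was 5.48 (2.84 to 12.1) in controls and 3.19 (2.25 to 4.66) after laser. The Cd163l1 and Trdc cluster made up 20.7%, 10.9% and 11.8% of the class in aged CNV, aged control and young CNV, and 3 of 25 cells in young control. The Icos and Cd4 cluster made up 23.0%, 14.1% and 52.9%, and 4 of 25 cells in young control. In B-like cells the level was 252 CPM in aged CNV and 70.3 CPM in aged control, a ratio of 3.59 (2.18 to 6.22) on 35 and 28 cells. Their make-up differed too. The cluster led by Igkc and Mzb1 held 20 and 10 of these cells and the one led by Ighd and Pax5 held 15 and 18. In aged control 5 cells held 94.7% of the 19 UMIs.

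Of the binding proteins, Igfbp5 and Igfbp4 were lower after laser at both ages over the whole fibroblast-like class. IGF binding protein 5 binds to matrix and IGF binding protein 4 is the substrate of pregnancy-associated plasma protein A. Igfbp5 stood at 9224, 12020, 5700 and 7499 CPM in aged CNV, aged control, young CNV and young control, with laser ratios of 0.767 (0.762 to 0.773) in aged and 0.760 (0.755 to 0.765) in young mice. Igfbp4 stood at 1727, 2203, 1274 and 1624 CPM, with laser ratios of 0.784 (0.770 to 0.798) and 0.784 (0.774 to 0.795). Both genes were lower in CNV than in the control of that age and higher in aged than in young mice, by 1.60 (1.59 to 1.61) for Igfbp5 and 1.36 (1.33 to 1.38) for Igfbp4 in controls. None of these ratios was past 2-fold.

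The clusters did not share one direction. In the Chil1 and Myoc cluster Igfbp5 was 7267 CPM in aged CNV and 10830 in aged control, and 4035 in young CNV and 9604 in young control. Its laser ratio there was 0.671 (0.663 to 0.679) in aged and 0.420 (0.415 to 0.426) in young mice, and Igfbp4 moved alongside, at 0.640 (0.623 to 0.657) and 0.494 (0.481 to 0.507). The young ratios compared cells of different make-up. At Leiden resolution 2.0, 47.9% of this cluster in young CNV and 88.8% in young control fell into the Ecrg4 and Chad cluster. In the Pgf and Pappa2 cluster Igfbp5 was higher after laser, at 1.36 (1.34 to 1.37) in aged and 1.17 (1.16 to 1.19) in young mice, while Igfbp4 was lower, at 0.766 (0.739 to 0.793) and 0.850 (0.828 to 0.873). In the Angptl7 and Ecrg4 cluster Igfbp4 was past 2-fold in aged mice, at 2.13 (1.91 to 2.39), on 130 and 86 cells, and 0.856 (0.821 to 0.893) in young mice. In the Clec3b and Dpt cluster the pattern was turned round, with Igfbp4 at 1.82 (1.72 to 1.92) in aged and 1.10 (1.07 to 1.13) in young mice and Igfbp5 at 0.631 (0.619 to 0.643) and 0.895 (0.884 to 0.906). The class values for Igfbp4 and Igfbp5 are therefore sums over clusters that differed in direction.

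Outside fibroblast-like cells the mural cells carried both genes. Pericyte/smooth muscle-like cells had Igfbp5 at 3696 CPM in aged CNV, 1954 in aged control, 2808 in young CNV and 3104 in young control. Aged control was the lowest library, and the laser ratio was 1.89 (1.81 to 1.98) in aged and 0.905 (0.879 to 0.932) in young mice. Within the Myh11 cluster Igfbp5 stood at 3289, 1832, 2320 and 2133 CPM, with laser ratios of 1.80 (1.70 to 1.90) in aged and 1.09 (1.04 to 1.14) in young mice, so the lower class level in young mice was not seen there. Igfbp4 in these cells was 703, 656, 722 and 929 CPM. Macrophage/monocyte-like cells had Igfbp4 at 48.7, 49.1, 150 and 228 CPM. Aged over young was 0.215 (0.162 to 0.283) in controls and 0.325 (0.274 to 0.382) after laser. In the Cd163 and Folr2 cluster, which held few of the aged cells, Igfbp4 stood at 305, 328, 400 and 370 CPM, so the difference over the class was larger than within that cluster.

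Igfbp5 also appeared much higher after laser in retinal cells of aged mice, but on a handful of cells. Müller glia-like cells had 431 CPM in aged CNV, 32.8 in aged control, 86.5 in young CNV and 125 in young control, and the laser ratio in aged mice was 13.1 (10.6 to 16.4). In aged CNV, 5 of the 302 cells held 76.8% of these UMIs and a single cell held 672. Without the 5% of cells with the most Igfbp5 UMIs in each library the levels were 26.7, 22.6, 54.8 and 37.3 CPM and the ratio in aged mice was 1.18. Bipolar-like cells had 186, 38.0, 144 and 208 CPM, and 34.5, 22.3, 57.0 and 30.4 CPM without such cells. Fibroblast markers summed to 348, 74.2, 493 and 330 CPM in Müller glia-like cells, with 8 of 8 detected in aged CNV, young CNV and young control and 7 in aged control, where Dpt was at 0. Their part in these values was not tested.

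**Figure D4:**
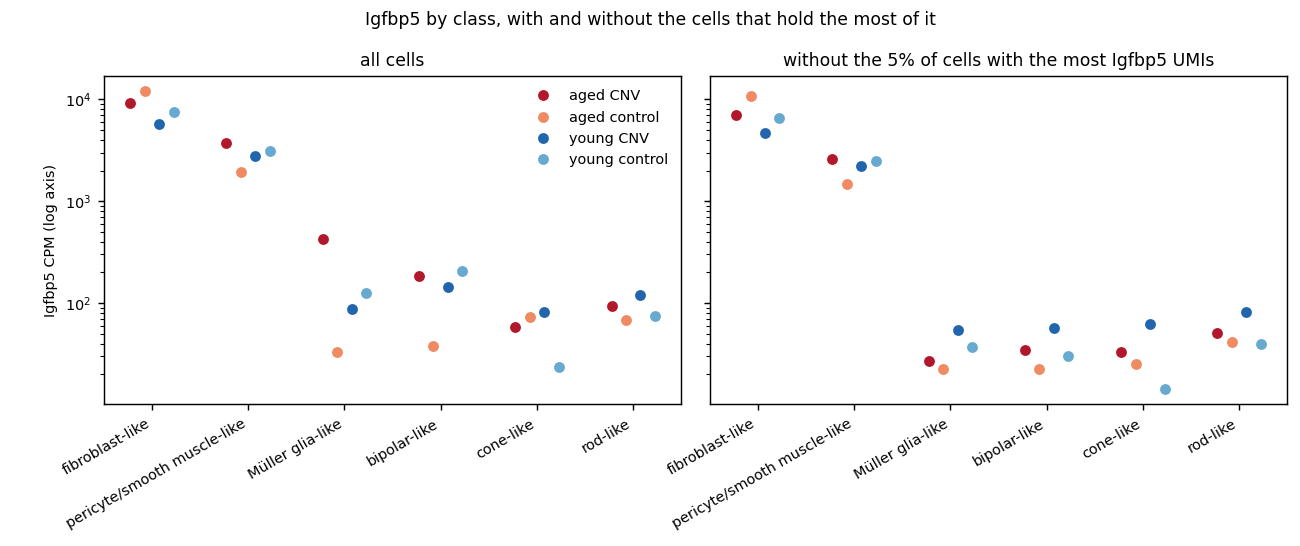
Igfbp5 in CPM (log axis) in 6 classes, for all cells (left) and without the 5% of cells with the most Igfbp5 UMIs in each class and library (right), with 1 point per library. The level of 431 CPM in Müller glia-like cells of aged CNV becomes 26.7 CPM, while fibroblast-like and pericyte/smooth muscle-like cells keep levels above 1000 CPM.

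Igfbp6, which encodes a binding protein with a preference for IGF2, was lower in aged than in young fibroblast-like cells. It stood at 733, 852, 1143 and 1388 CPM in aged CNV, aged control, young CNV and young control, so that both aged libraries lay below both young ones. Laser ratios were 0.8604 (0.837 to 0.885) in aged and 0.823 (0.811 to 0.835) in young mice, and aged over young was 0.613 (0.599 to 0.628) in controls and 0.641 (0.628 to 0.655) after laser. By cluster it was highest in the one led by Angptl7 and Ecrg4, at 1485, 2215, 2194 and 2565 CPM, and low in the Pgf and Pappa2 cluster, at 42.2, 34.8, 113 and 143 CPM. In the Chil1 and Myoc cluster, where Igfbp5 and Igfbp4 were lower after laser, Igfbp6 was so too, at 0.622 (0.596 to 0.649) in aged and 0.384 (0.370 to 0.398) in young mice. The young ratio again compared cells of different make-up.

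Igfbp2, a binding protein of secretory and neural tissue, was found in several classes. Fibroblast-like cells had 198, 148, 281 and 356 CPM in aged CNV, aged control, young CNV and young control, and aged over young was 0.416 (0.394 to 0.439) in controls. These UMIs lay in few cells. Without the 5% of cells with the most Igfbp2 UMIs the levels were 32.2, 26.5, 42.8 and 48.4 CPM, so the controls were no longer 2-fold apart. The Angptl7 and Ecrg4 cluster had 129 and 116 CPM in aged CNV and aged control and 1192 and 1102 CPM in young CNV and young control. There aged over young was 0.108 (0.0916 to 0.127) after laser and 0.106 (0.0848 to 0.1298) in controls, on cells of which 0%, 1.16%, 29.5% and 44.1% fell into the Ecrg4 and Chad cluster at the higher resolution, while the Chil1 and Myoc cluster had 272, 237, 245 and 269 CPM. In the Clec3b and Dpt cluster aged control was nearly without Igfbp2, at 7.24 CPM against 193 in aged CNV, 113 in young CNV and 212 in young control.

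Cells of the retinal pigment epithelium, which supports photoreceptors, carried Igfbp2 more in aged than in young mice. RPE-like cells had 234 CPM in aged CNV, 267 in aged control, 76.2 in young CNV and 178 in young control. Aged over young was 3.07 (2.59 to 3.64) after laser and 1.503 (1.38 to 1.64) in controls, and the laser ratio was 0.874 (0.786 to 0.970) in aged and 0.429 (0.364 to 0.502) in young mice. In aged CNV 5 cells held 52.4% of the UMIs. The make-up of the class also differed between libraries. At Leiden resolution 2.0 an RPE-like cluster with a median of 7234 UMIs per cell held 65, 783, 189 and 311 cells. These are given for aged CNV, aged control, young CNV and young control. Another with a median of 2213 UMIs held 252, 249, 146 and 171 cells. The part of this in the Igfbp2 ratios was not tested. Without the 5% of cells with the most Igfbp2 UMIs the levels were 93.1, 211.8, 46.5 and 86.2 CPM, and the laser ratio was 0.439 in aged and 0.540 in young mice, so the difference between the ages in the laser ratio was no longer seen. With cells thinned to 1000 UMIs the young laser ratio was 0.809 and the age ratio after laser 1.68, neither past 2-fold. Keratin-rich epithelium-like cells had Igfbp2 at 134, 183, 312 and 299 CPM, with aged over young at 0.431 (0.402 to 0.461) after laser. Pericyte/smooth muscle-like cells had 13.9, 20.8, 109 and 40.8 CPM and their young laser ratio was 2.67 (2.16 to 3.30), where 5 cells held 85.3% of the young CNV UMIs.

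Igfbp3, which encodes the main carrier of IGFs in blood, was held mainly by endothelial-like cells here. Its level there was 1316 CPM in aged CNV, 962 in aged control, 1306 in young CNV and 1385 in young control. Aged control was the lowest and the other 3 lay close together. The laser ratio was 1.37 (1.30 to 1.44) in aged and 0.942 (0.914 to 0.972) in young mice, and aged over young was 0.694 (0.663 to 0.727) in controls and 1.01 (0.973 to 1.04) after laser. Igfbp3 was concentrated in the endothelial cluster led by Plvap, a gene of fenestrated endothelium, at 1445, 974, 1504 and 1517 CPM. In the cluster led by Gpihbp1, a lipase-binding protein of capillaries, it was 122 CPM in aged CNV, 391 in aged control, where it had 17 cells, 473 in young CNV and 432 in young control. Within the Plvap cluster the laser ratio was 1.48 (1.41 to 1.56) in aged and 0.992 (0.961 to 1.02) in young mice. Fibroblast-like cells had Igfbp3 at 29.9, 10.2, 63.3 and 32.8 CPM in aged CNV, aged control, young CNV and young control. Without the 5% of these cells with the most Igfbp3 UMIs the levels were 0.149, 0, 26.5 and 10.3 CPM.

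Igfbp7 was highest in pericyte/smooth muscle-like cells, while fibroblast-like cells held 58.6%, 57.0%, 60.4% and 44.7% of its UMIs. Pericyte/smooth muscle-like cells had 2334, 2253, 4431 and 3961 CPM in aged CNV, aged control, young CNV and young control, with both aged libraries below both young ones. Aged over young was 0.569 (0.548 to 0.590) in controls and 0.527 (0.505 to 0.549) after laser. The Myh11 cluster made up 66.7%, 84.0%, 48.9% and 51.5% of this class, so its make-up differed between the ages. The part of this in the Igfbp7 ratios was not tested. Endothelial-like cells had 1656, 1878, 2822 and 2300 CPM, and the laser ratio was 0.882 (0.849 to 0.916) in aged and 1.23 (1.20 to 1.25) in young mice. The Gpihbp1 cluster held 76, 17, 245 and 85 of the 453, 415, 733 and 520 endothelial-like cells, so this make-up differed too. Its part in the endothelial-like ratios was not tested. Fibroblast-like cells had 1163, 1458, 1656 and 1411 CPM, with laser ratios of 0.798 (0.781 to 0.815) and 1.17 (1.16 to 1.19). Over the class, young mice thus had a higher level and aged mice a lower level after laser in both, by less than 2-fold. Within fibroblast-like clusters the aged laser ratio was above 1 in 3 of 4, from 0.939 to 1.11. The lower class level in aged mice was thus not seen in most of them. It was seen in the Chil1 and Myoc cluster, which made up 48.8% of the class in aged control. The young laser ratio was above 1 in 4 of 5 clusters, from 0.826 to 1.74. Schwann-like cells had Igfbp7 at 1306, 451, 1965 and 1585 CPM on 35, 30, 131 and 65 cells. In aged CNV and aged control 5 cells held 48.3% and 58.7% of these UMIs. Fibroblast markers summed to 3072, 457, 3201 and 2997 CPM in Schwann-like cells, also lowest in aged control. Their part in these values was not tested. In the Chil1 and Myoc cluster Igfbp7 was 1600, 1705, 2963 and 1705 CPM, so young CNV stood alone, on cells whose make-up differed from young control. RPE-like cells had 562, 465, 691 and 529 CPM.

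**Figure D5:**
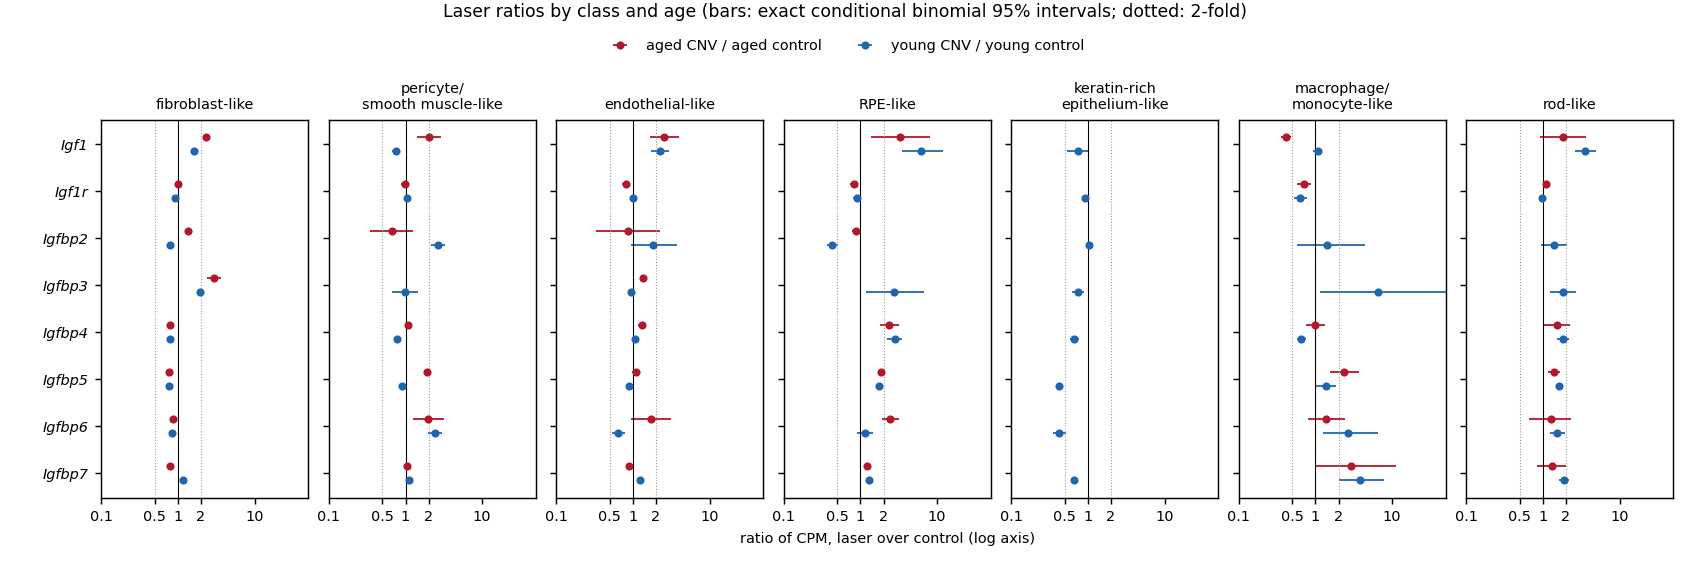
Ratio of CPM in CNV over control (log axis) for each member, in aged and in young mice, in 7 classes, with exact conditional binomial 95% intervals and dotted lines at 2-fold. In fibroblast-like cells Igf1 lies above 1 at both ages (2.32 in aged and 1.62 in young mice) and Igfbp4, Igfbp5 and Igfbp6 lie below 1, and rod-like cells are shown for comparison.

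Calls were counted over all classes beside those of all genes. After laser in aged mice 25 of 82 member and class pairs were at least 2-fold higher and 2 lower, where 8.18% and 3.99% of all gene and class pairs were. After laser in young mice 23 of 106 were higher and 12 lower, where 5.16% and 5.23% of all pairs were. Aged over young in controls gave 3 of 69 higher and 17 lower, beside 9.23% and 7.61%. Aged over young after laser gave 5 of 88 higher and 31 lower, beside 11.6% and 5.98%. The share of members called was below that of all pairs for lower calls after laser in aged mice and for higher calls in both age comparisons, and above it in the other 5 counts. With the higher level required to be at least 3 times that of rod-like cells of the same library (erythroid-like cells for Igf1r), 9 higher and 2 lower of the 82 pairs were left after laser in aged mice, where 2.91% and 1.88% of all pairs were. In young mice 3 and 10 of the 106 were left, beside 1.86% and 1.5%. For age in controls 1 and 6 of the 69 were left, beside 3.33% and 2.49%, and for age after laser 5 and 8 of the 88, beside 3.47% and 1.82%. Only Igf1r was given the erythroid-like floor. Other genes kept the rod-like floor, also where rod-like cells express them, so these shares were not under an equal rule for Igf1r. With the ratio also past 2-fold without the 5% of cells with the most UMIs of the gene, fewer pairs were left. They were 3 higher and 2 lower after laser in aged mice and 2 and 1 in young mice. For age in controls they were 1 and 3, and for age after laser 4 and 7. The share of all pairs under this added rule was not computed. Both requirements were chosen after the values were seen.

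The median log2 ratio over member and class pairs was 0.43 after laser in aged mice, 0.09 after laser in young mice, -0.50 for age in controls and -0.55 for age after laser, where all genes had 0.01, -0.03, 0.10 and 0.16. The 24 other genes of the pathway that were listed had 0.06, -0.01, 0.25 and 0.40. After laser in aged mice 23 of 209 pairs of these genes were higher and 11 lower, beside 8.18% and 3.99% of all pairs. In young mice 11 of 218 were higher and 9 lower, beside 5.16% and 5.23%. For age in controls 23 of 168 were higher and 6 lower, beside 9.23% and 7.61%. Age after laser gave 26 of 196 higher and 13 lower, beside 11.6% and 5.98%. Both young laser shares of these genes lay slightly below those of all pairs. The share was also below for lower calls in age in controls, and above in the other counts.

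Of the listed genes, Pappa2 was called in fibroblast-like cells in all 4 comparisons. Pappa2, which encodes a protease that cleaves IGF binding proteins 3 and 5, was 60.1 CPM in aged CNV, 206 in aged control, 21.1 in young CNV and 61.1 in young control. It was lower after laser at both ages, at 0.291 (0.269 to 0.315) in aged and 0.345 (0.317 to 0.375) in young mice, and higher in aged mice, at 3.38 (3.15 to 3.62) in controls and 2.85 (2.60 to 3.13) after laser. Pappa2 leads the cluster that also took a smaller share of the class after laser. Pappa, the related protease, had 109.5 CPM in aged CNV, 145 in aged control, 42.0 in young CNV and 72.4 in young control in Müller glia-like cells, with aged over young at 2.61 (2.003 to 3.43) after laser and 2.001 (1.68 to 2.39) in controls. In Schwann-like cells Pappa had 889, 108, 229 and 75.4 CPM on 35, 30, 131 and 65 cells, and the young laser ratio was 3.04 (2.09 to 4.57).

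The other ligand, Igf2, was 15.2, 23.3, 66.9 and 64.9 CPM in fibroblast-like cells of aged CNV, aged control, young CNV and young control, with aged over young at 0.228 (0.198 to 0.261) after laser. In Müller glia-like cells Igf2 was 33.7, 69.6, 60.8 and 67.04 CPM, and the aged laser ratio was 0.484 (0.380 to 0.614). Igf2r, which encodes the receptor that takes up IGF2 for degradation, was 209.5 CPM in neutrophil-like cells of aged CNV and 41.7 in those of aged control, a ratio of 5.03 (2.10 to 15.7) on 134 and 5 UMIs, from libraries whose neutrophil-like cells lay in different clusters. In T-like cells Igf2r was 200 CPM in aged control and 64.9 in young control, a ratio of 3.08 (1.77 to 5.88) on 221 and 13 UMIs. Irs1, an adaptor below the receptor, was 92.3 CPM in aged CNV and 45.4 in young CNV in pericyte/smooth muscle-like cells, a ratio of 2.03 (1.56 to 2.64). Stc2 and Igfals passed 2-fold on few UMIs. In Schwann-like cells Stc2, a stanniocalcin that inhibits pregnancy-associated plasma protein A, had 34 UMIs in young CNV and 0 in young control, a ratio whose 95% counting interval starts at 2.44, and in fibroblast-like cells it had 24 UMIs in aged CNV and 8 in aged control. Igfals, the acid-labile subunit, had 8 UMIs in aged CNV and 14 in young CNV in macrophage/monocyte-like cells.

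The genes whose levels ran most like each member over 9 classes in 4 libraries (36 sums that share libraries and depth) are given with Pearson's r of log2(CPM + 5) as a description. For Igfbp3 they were Ecscr (0.97), Cdh5 (0.97) and Adcy4 (0.97), all expressed in endothelium. For Igfbp7 they were Cald1 (0.95), Phldb2 (0.95) and Ackr3 (0.95). For Igfbp4 they were Rcn3 (0.97), Mxra8 (0.94) and Sec24d (0.93), for Igfbp5 Serpine2 (0.96), Rbms3 (0.95) and Bgn (0.94), for Igfbp6 Fbln1 (0.95), Serpinf1 (0.95) and Lum (0.95), and for Igfbp2 Pcolce (0.94), Cpxm2 (0.93) and Thbs4 (0.93). Igf1 had the weakest likeness, with Fn1 (0.81), Slc8a1 (0.78) and Cblb (0.77). Igf1r had Enah (0.93), Trpc1 (0.92) and Klhl7 (0.92).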

How the data were processed

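Droplet single-cell RNA sequencing libraries of retina and choroid, 1 per group, were used. The authors deposited unnormalised UMI counts for each gene in each cell as a single matrix. The alignment build was mm10, and Cell Ranger and Seurat 4.1.1 are named as tools, per the submitters' processing notes. Libraries were read from the column prefixes, with e taken as aged because it was the only code besides y, and 0 columns stayed without a library. A filter of 200 genes per cell and of 25% mitochondrial UMIs removed no cell. Predicted doublets (Scrublet score of at least 0.2, run per library) were removed, 277 in aged CNV, 245 in aged control, 303 in young CNV and 276 in young control. Clustering used 2000 variable genes without the 8 members and the listed pathway genes, 40 principal components, 20 neighbours and Leiden resolution 1.0 (scanpy 1.11.5, leidenalg 0.10.2, igraph 0.11.9, seed 1), and leukocytes were clustered again. Classes were named from fixed markers, with at least 3 of them, and are called X-like. Thresholds for naming, and 3 clusters left unnamed because their leading genes came from several classes or another epithelium, were set after the cluster table was seen. UMIs were summed per class and library with Python 3.11.15, numpy 2.4.6, scipy 1.17.1 and pandas 2.3.3, scaling factors came from edgeR 4.0.16 in R 4.3.3, and figures from matplotlib 3.10.9. A library with 0 UMIs was set to 3 counts for a bound. The ratio step was tested on simulated data. Members, lists, rules and comparisons were chosen with earlier results of these data known. Of 24 further pathway genes, up to 5 per comparison with the largest change among those called were named, in the class compared where the gene was highest, and 3 look-alike genes per member, of at least 100 CPM in 1 sum, were taken by correlation. Some clusters were described after their values were seen. The other cluster of the pericyte/smooth muscle-like class is not reported here. Alternatives were TMM and median-of-ratios scaling, thinning, doublets kept, members among the variable genes, a higher resolution and other UMI minimums, and, added after the values were seen, leaving out the 5% of cells with the most UMIs of a gene and a guard of 3 times the rod-like level.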

Additional observations from a re-analysis of the deposited data

Results flagged for a closer look

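In 9 member and class pairs the 95% counting intervals of the laser ratio lay on opposite sides of 1 in aged and young mice. The quotient of the aged over the young laser ratio is given for each. With 1 library per group the difference was not tested. For Igfbp5 the quotient was 18.9 in Müller glia-like cells (ratios 13.1 in aged and 0.693 in young mice), 7.05 in bipolar-like cells (4.88 and 0.693), 2.09 in pericyte/smooth muscle-like cells (1.89 and 0.905) and 0.227 in cone-like cells (0.789 and 3.47). Without the 5% of cells with the most Igfbp5 UMIs, the ratios were 1.18 in aged and 1.47 in young Müller glia-like cells, 1.55 and 1.88 in bipolar-like cells and 1.30 and 4.35 in cone-like cells, so the opposite directions were no longer seen there. Over all cone-like cells Igfbp5 stood at 58.1, 73.6, 80.9 and 23.3 CPM in aged CNV, aged control, young CNV and young control. This was near or below the 94.6, 67.9, 121 and 74.2 CPM of rod-like cells, the class taken as a floor. Within the Myh11 cluster of pericyte/smooth muscle-like cells the Igfbp5 ratios were 1.80 and 1.09. For Igf1 it was 2.70 in pericyte/smooth muscle-like cells (2.01 and 0.742), a class whose Myh11 cluster made up 66.7%, 84.0%, 48.9% and 51.5% of cells in aged CNV, aged control, young CNV and young control. For Igfbp7 it was 0.679 in fibroblast-like cells (0.798 and 1.17) and 0.719 in endothelial-like cells (0.882 and 1.23). Within fibroblast-like clusters the aged laser ratio of Igfbp7 was above 1 in 3 of 4, from 0.939 to 1.11, so the opposite directions of that class were not seen within most of its clusters. For Igfbp3 it was 1.45 in endothelial-like cells (1.37 and 0.942). The endothelial-like class behind the Igfbp7 and Igfbp3 values joined the Plvap and Gpihbp1 clusters, whose shares differed between libraries. For Igfbp2 it was 1.69 in fibroblast-like cells (1.33 and 0.788).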

How the results depend on the processing

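No paired analysis was possible because each group was 1 library, and for the same reason no library could be left out within a group. Counts of member and class pairs at least 2-fold apart moved by over 1.5 times under these settings. With cells thinned to 1000 UMIs they were 5 higher and 1 lower after laser in aged mice, 10 and 5 in young mice, 5 and 10 for age in controls, and 18 lower for age after laser. With predicted doublets kept, 4 were lower after laser in aged mice and 10 higher for age after laser, and with Leiden resolution 2.0, 9 were higher for age after laser. With a minimum of 1 UMI, 15 were lower after laser in aged mice, and 5 higher and 29 lower for age in controls. With a minimum of 100 UMIs, 13 were higher after laser in aged mice, 13 in young mice, and 10 lower for age in controls. Without the 5% of cells with the most UMIs, 9 were higher and 5 lower after laser in aged mice, 1 lower in young mice and 6 lower for age in controls. The UMI minimum, thinning and the cells left out also change which pairs are compared. These counts are therefore not shares of the same pairs as in the main setting. The share of all gene and class pairs called under each setting was not computed. Ratios that reversed with doublets kept were, in Müller glia-like cells, Igfbp7 (0.697 young laser, 0.871 aged laser) and Igf1 (0.428 young laser, 0.668 age in controls), in bipolar-like cells Igfbp5 (0.926 aged laser) and Igfbp4 (1.38 age after laser), and Igfbp6 in melanocyte-like cells (1.14 young laser). With members among the variable genes Igf1 in RPE-like cells became 1.28 for age after laser. Without the 5% of cells, Igfbp6 became 1.91 in Schwann-like and 1.40 in keratin-rich epithelium-like cells, and Igfbp5, Igfbp7 and Igfbp4 became 1.93, 1.27 and 1.35 in melanocyte-like cells, all for young laser, Igfbp6 became 0.474 in RPE-like cells for aged laser and Igfbp5 became 0.487 in Müller glia-like cells for age after laser. The cause was not tested. TMM and median-of-ratios scaling shifted the median gene by -0.40 to 0.59 on the log2 scale in a class and comparison and reversed no called member ratio. Levels in the rare leukocytes are limited by few cells, in places under 50.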
